A study of Mus musculus with 12 samples.

Results

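Adipocytes differentiated in culture from mouse embryonic stem (ES) cells were compared with adipocytes differentiated from 3T3-L1 cells. The comparison takes all arrays that the labels give to these groups, 3 of ES adipocytes and 3 of 3T3-L1 adipocytes, which is 6 of the 12 arrays in the series. The other 6 arrays, 3 of adipocytes from primary mouse embryonic fibroblasts (PMEF) and 3 of eWAT (by its usual meaning, epididymal white adipose tissue) of healthy wild-type mice, shared the estimate of the spread and give reference levels. The cultured groups are unmodified cells as far as the labels say. 3T3-L1 is an established line of mouse embryo fibroblasts that turns into fat cells under hormones, and it stands for that line alone. The strain, the ES line, its clone, the day of differentiation and the medium are not stated in the labels used here, so the origin of the cells cannot be told apart from line or culture. The series design states biological triplicates.

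White fat cells arise when the transcription factors PPARγ and C/EBPα switch on each other and the genes of fat storage. The mature cell takes up fatty acids and glucose, stores triglyceride in a droplet coated with perilipins, releases fatty acids on adrenergic signals and secretes hormones such as leptin and adiponectin. 3T3-L1 cells are already committed to this path, while ES cells must first pass through mesoderm, so an ES culture can hold other lineages beside fat cells.

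Levels are log2 intensities as deposited, 1 probe set for each of 19938 genes. A gene is said to have risen or fallen in ES adipocytes when the adjusted p of the fit over all genes was under 0.05, and differences are ES minus 3T3-L1 on the log2 scale with the standard error of the fit (n = 3 per group throughout). By this test 8651 genes changed (43.4%), of which 4071 rose (20.4%) and 4580 fell (23.0%). At least 2-fold changes were called for 1623 genes (8.14%), of which 1063 rose (5.33%) and 560 fell (2.81%). Counts of list members below are to be read beside these shares. The arrays of the groups did not overlap for 11046 genes (55.4%). The ES arrays had medians of 6.31 to 6.33 over these genes and the 3T3-L1 arrays 6.11 to 6.12. Correlations across genes, which are not independent replicates, were 0.996 to 0.997 within and 0.947 to 0.950 between the groups.

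The split of calls depended on how arrays were scaled. Of all calls 47.1% were higher in ES adipocytes with the deposited scale, 66.2% with arrays centred on reference genes and 21.7% with arrays centred on their medians, while among at least 2-fold changes the shares were 65.5%, 75.6% and 46.0%. The reference genes were 7 measured genes, of which 2 fell and 0 rose with the deposited scale, with differences of -0.5 to 0.08. These centrings moved the median difference of all genes, -0.022 as deposited, by 0.137 and -0.204. Differences of that size, several list and chromosome medians below among them, therefore have no settled direction. As a guide to dim signal, chosen after the data were seen, 95% of 1027 olfactory receptor genes had a level below 5.14. In 396 of the genes that rose at least 2-fold the 3T3-L1 mean lay below that level, as did the ES mean in 61 of the genes that fell at least 2-fold, so the sizes of these changes are imprecise.

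**Figure D1:**
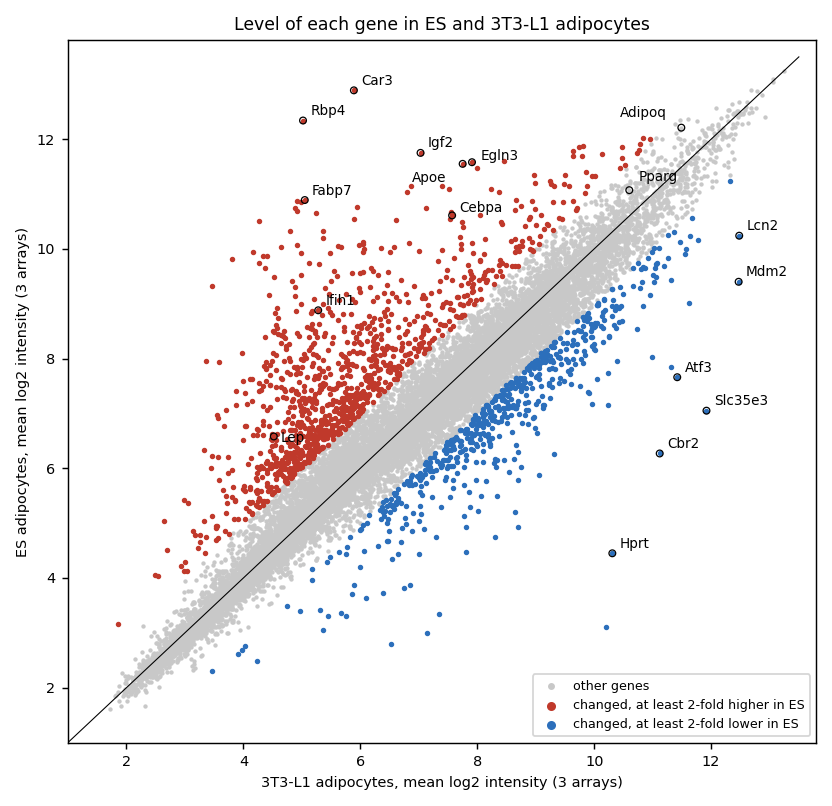
Mean log2 intensity of each of the 19938 genes in 3T3-L1 adipocytes (horizontal) and in ES adipocytes (vertical), 3 arrays each, with the line of equality. The 1063 genes that rose at least 2-fold lie above the line in red and the 560 that fell lie below it in blue, and Adipoq and Pparg lie near the line while Rbp4 and Car3 lie far above it and Hprt far below.

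Defining markers of fat cells were present in both groups. All 8 adipocyte markers (Adipoq, Pparg, Cebpa, Plin1, Fabp4, Cidec, Lipe and Retn) lay above the dim level in each group and 7 of them rose in ES adipocytes. Their summed level, as log2, was at most 15.03 in the ES arrays, 14.42 to 14.50 in the 3T3-L1 arrays and 15.13 to 15.17 in eWAT. In bulk samples such as these, fewer fat cells and less RNA of these genes per cell cannot be told apart.

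The master regulators of fat differentiation were unequally affected. Of 28 measured regulators, 12 rose and 6 fell, 4 of them rose at least 2-fold and none fell as far, and the median of the list was 0.13 (it turned to -0.073 with arrays centred on their medians). Cebpa, which encodes C/EBPα, was at 10.64, 10.69 and 10.50 in the ES arrays and at 7.55, 7.69 and 7.45 in the 3T3-L1 arrays. The ES arrays were all about 3 log2 units higher without overlap, and Cebpa rose by 3.04 ± 0.11 (SE, 8.25-fold, adjusted p = 6.94e-11). Its partner Pparg, at 11.05, 11.13 and 11.02 against 10.60, 10.64 and 10.55, rose by only 0.47 ± 0.08 (1.38-fold, adjusted p = 0.00032). Srebf1, a driver of fatty acid synthesis that insulin induces, was at 10.17, 10.20 and 10.28 against 7.67, 7.69 and 7.77 and rose by 2.51 ± 0.07. Mlxipl, the glucose-sensing factor ChREBP, rose by 1.63 ± 0.08, and the early factor Egr2 by 1.14. Ebf1, which acts beside PPARγ, and the glucocorticoid receptor gene Nr3c1 rose by 0.92 ± 0.07 and 0.75 ± 0.08. On the other side Cebpb, which acts early and hands over to C/EBPα, was at 8.31, 8.14 and 8.22 against 8.95, 8.96 and 8.97 and fell by 0.74 ± 0.07, and Gata3, which holds back differentiation, fell by 0.94 ± 0.14.

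Secreted products of fat were mostly higher. Of 25 measured adipokines and other secreted products 16 rose and 4 fell, with 10 up and 1 down at least 2-fold and a median of 0.76. Rbp4, the blood carrier of retinol that fat and liver release, was at 12.37, 12.36 and 12.29 in the ES arrays and at 5.30, 4.78 and 5.0 in the 3T3-L1 arrays. The 3T3-L1 arrays thus lay at the dim level and the ES arrays near the top of the range, a rise of 7.31 ± 0.11 (159-fold, adjusted p = 4.48e-14). PMEF adipocytes had a mean of 8.73 and eWAT 11.87. Apoe, the apolipoprotein E gene, was at 11.56, 11.62 and 11.47 against 7.67, 7.81 and 7.76 and rose by 3.81 ± 0.08. Lep, the leptin gene, was at 6.48, 6.49 and 6.78 against 4.65, 4.10 and 4.81 and rose by 2.06 ± 0.26, but both cultures stayed far below the eWAT mean of 10.44. The hormones most often used to mark fat cells differed little. Adipoq (adiponectin) was at 12.20, 12.26 and 12.17 against 11.44, 11.60 and 11.44 and rose by 0.72 ± 0.07, and Retn (resistin) rose by 0.76 ± 0.07. Angptl8, an insulin-induced inhibitor of lipoprotein lipase, rose by 2.29 ± 0.16, the galectin gene Lgals12 by 2.06 ± 0.11 and the vasoactive peptide genes Adm and Apln by 2.65 ± 0.22 and 1.82 ± 0.08. Among the few that fell, the fasting hormone gene Fgf21 was at 6.90, 6.42 and 6.77 against 7.43, 7.68 and 7.99 and fell by 1.0 ± 0.15, and Agt, the angiotensin precursor, fell by 0.92 ± 0.09.

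**Figure D2:**
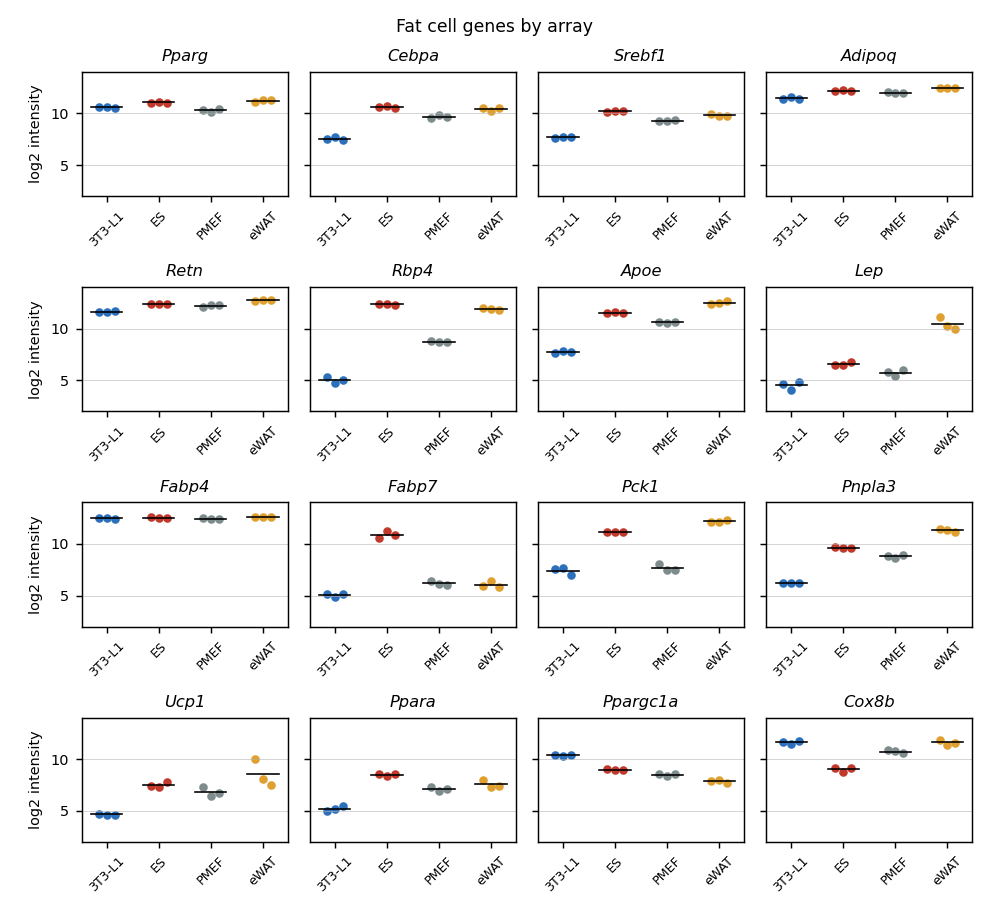
Log2 intensity of 16 fat cell genes in each of the 12 arrays, by group, with bars at the group means. Fabp4 is nearly level across groups, Rbp4, Apoe, Cebpa and Pnpla3 are far lower in 3T3-L1 than in ES adipocytes, Fabp7 is high only in the ES arrays among these 4 groups, and Ppargc1a and Cox8b are higher in 3T3-L1 than in ES adipocytes.

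Genes of lipolysis and of its restraint were mostly higher in ES adipocytes. Of 15 measured genes of lipolysis and its control 12 rose, 7 of them at least 2-fold, and 1 fell, with a median of 0.85. Of those 7, Pnpla3 and Mgll encode hydrolases, and Pde3b, Hcar1, Hcar2, Ptger3 and G0s2 encode proteins that restrain lipolysis. Pnpla3, a lipid droplet hydrolase that insulin induces, was at 9.65, 9.6 and 9.56 against 6.22, 6.22 and 6.18 and rose by 3.39 ± 0.09 (10.5-fold). Mgll, which cleaves the last fatty acid from monoglyceride, was at 10.35, 10.45 and 10.39 against 7.65, 7.92 and 7.68 and rose by 2.65 ± 0.09. Pde3b, through which insulin lowers cyclic AMP, rose by 1.85 ± 0.08, and so did the antilipolytic receptor genes Hcar2 (1.73 ± 0.15), Hcar1 (1.59 ± 0.08) and Ptger3 (1.33 ± 0.13). The hormone-sensitive lipase gene Lipe rose by 0.85 ± 0.08. Pnpla2, the gene of the first lipase of the pathway, overlapped between groups at 12.08, 12.09 and 12.08 against 12.15, 12.13 and 12.04 (-0.02 ± 0.06, adjusted p = 0.84), although it fell by 0.22 with median centring. Among 22 lipid droplet proteins 11 rose and 5 fell. The ATGL inhibitor gene G0s2 rose by 1.68 ± 0.19, Plin5 by 1.33 ± 0.12, Plin1 by 0.91 ± 0.08 and Cidec by 0.23 ± 0.07, while Plin3 fell by 0.70. The call of Cidec was lost with median centring (0.03).

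In fatty acid uptake and binding 7 of 18 genes rose and 4 fell. Fabp7, a fatty acid binding protein best known from glia of the brain, was at 10.59, 11.22 and 10.86 in the ES arrays and at 5.19, 4.83 and 5.11 in the 3T3-L1 arrays. It rose by 5.84 ± 0.17 (57.4-fold), and PMEF adipocytes and eWAT were also low, with means of 6.22 and 6.06. The main binding protein of fat cells, Fabp4, was at 12.55, 12.50 and 12.51 against 12.47, 12.47 and 12.41 and did not pass the test (0.07 ± 0.06, adjusted p = 0.377), nor did Fabp5 (0.23 ± 0.13, adjusted p = 0.194). Both passed with reference gene centring, at 0.21 and 0.36. The transporter gene Slc27a1 rose by 1.67 ± 0.09 and Fabp3 by 1.54 ± 0.13. The acyl-CoA synthetase gene Acsl4, at 8.99, 8.87 and 8.91 against 10.47, 10.39 and 10.42, fell by 1.5 ± 0.08.

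Fatty acid and triglyceride synthesis was split, with 14 of 40 genes higher and 13 lower and a median of -0.04 (0.101 with reference gene centring, and 0.032 without ES array 2). Pck1, which supplies glycerol for triglyceride, was at 11.14, 11.17 and 11.15 against 7.55, 7.66 and 6.96 and rose by 3.76 ± 0.17 (13.6-fold). The PMEF mean was 7.66 and the eWAT mean 12.18. Elovl4, which makes very long chains, rose by 2.98 ± 0.12, Gpam, the first step of glycerolipid synthesis, by 1.24 ± 0.07, Acly by 1.01 ± 0.09, Acaca by 0.79 ± 0.07 and Fasn by 0.71 ± 0.07. The desaturase gene Scd1 overlapped between groups (0.03 ± 0.06, adjusted p = 0.773), and its direction turned with the scaling, to 0.16 with reference gene centring and -0.18 with median centring. Its relative Scd3, at 8.45, 8.38 and 8.35 against 10.19, 10.23 and 10.33, fell by 1.85 ± 0.13, Lpin2 fell by 1.26 ± 0.07, the elongase gene Elovl6 by 0.98 ± 0.07 and the last enzyme of triglyceride synthesis, Dgat2, by 0.31 ± 0.08, a call that reference gene centring ended. Probe sets of close relatives such as the Scd genes can take up each other's signal.

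Sterol synthesis genes were mostly lower. Of 24 measured genes of cholesterol synthesis and uptake 14 fell, 4 of them at least 2-fold, and 5 rose, with a median of -0.36. Idi1, an isoprenoid enzyme, was at 8.23, 8.06 and 8.22 against 9.88, 10.19 and 9.94 and fell by 1.83 ± 0.09. The enzymes Cyp51, Msmo1 and Sqle fell by 1.74 ± 0.10, 1.57 ± 0.08 and 1.32 ± 0.11, and their regulator Srebf2 by 0.83 ± 0.07. Against this trend Dhcr7 rose by 0.83 ± 0.09 and Hmgcs1 by 0.60 ± 0.07.

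Genes linked to heat production did not move together. Of 26 thermogenic and beige genes 8 rose and 6 fell (6 and 4 at least 2-fold), and the median was 0.09 (-0.119 with median centring). Over all genes 20.4% rose and 23.0% fell, so the falls were near that share. At least 2-fold changes were 5.33% up and 2.81% down over all genes. Ucp1, which uncouples respiration in brown fat, was at 7.44, 7.30 and 7.74 against 4.69, 4.62 and 4.63 and rose by 2.84 ± 0.47. The 3T3-L1 arrays lay at the dim level, and the means of PMEF adipocytes and eWAT were 6.83 and 8.52. The eWAT arrays were spread widely (SD 1.36), which enters the standard error. Ppara, a nuclear receptor of fatty acid oxidation, rose by 3.28 ± 0.17 and Cox7a1, a muscle and brown fat subunit of cytochrome oxidase, by 1.55 ± 0.15. Other genes of the same list went the other way. Cox8b, a subunit of the same enzyme, was at 9.18, 8.72 and 9.15 against 11.63, 11.45 and 11.78 and fell by 2.60 ± 0.15. The mitochondrial coactivator Ppargc1a, at 9.0, 8.93 and 8.91 against 10.37, 10.34 and 10.39, fell by 1.42 ± 0.09 (0.95 by its other probe set), and the coenzyme A enzyme Pank1 by 1.82 ± 0.15.

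With the deposited scale, more genes of respiration and of amino acid and fatty acid oxidation fell than rose. Over all genes 20.4% rose and 23.0% fell. Among 44 respiratory chain subunits 20 fell and 4 rose, none of them 2-fold, and the median was -0.15. Centring on reference genes left 9 falls, and centring on array medians gave 34. The list median is about the size of the 0.137 by which reference gene centring moved all genes, so its direction is not settled. Ndufa5 had the largest fall, by 0.71 ± 0.08, and Ndufb3 the largest rise, 0.77 ± 0.08. In the breakdown of branched-chain amino acids, which fat cells use to make acetyl-CoA, 13 of 22 genes fell and 2 rose. Ivd fell by 0.75 ± 0.09, and Pcca rose by 1.18 ± 0.08. In fatty acid oxidation 14 of 28 genes fell and 7 rose. Acox2, a peroxisomal oxidase of branched acids, was at 6.43, 6.32 and 6.02 against 9.37, 9.25 and 9.33 and fell by 3.06 ± 0.14, and Pdk4, the brake on glucose oxidation, fell by 1.43 ± 0.09. Ehhadh, another peroxisomal enzyme, rose by 2.31 ± 0.13.

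More genes of insulin action were higher than lower. Of 27 such genes 14 rose and 6 fell, with a median of 0.32. The insulin receptor gene Insr rose by 0.55 ± 0.08 and the adaptor genes Irs1 and Irs3 by 1.43 ± 0.06 and 2.41 ± 0.15, although a second probe set of Irs1 rose by only 0.47. Grb10, an imprinted inhibitor of the insulin and IGF receptors, was at 9.18, 9.20 and 9.06 against 5.0, 4.88 and 4.78 and rose by 4.26 ± 0.07 (19.1-fold). Slc2a3, a high-affinity glucose transporter, rose by 2.82 ± 0.13. Slc2a4, the transporter that insulin moves to the surface, overlapped at 10.23, 10.15 and 10.12 against 10.01, 10.14 and 10.05 (0.10 ± 0.09, adjusted p = 0.422). Trib3, an inhibitor of Akt, fell by 1.69 ± 0.13.

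Glycolysis and the response to low oxygen formed a large block of rises. Cells short of oxygen stabilise HIF proteins, which bind a short core sequence and induce glycolytic enzymes, prolyl hydroxylases and vessel growth factors. Of 33 measured genes 22 rose, 15 of them at least 2-fold, and 7 fell, none of them 2-fold, with a median of 0.89. The 250 bases before the start of Egln3 and Slc16a3 are shown because these genes were among the largest rises of the list and carry the HIF core ACGTG, which is in capitals. In RefSeq (GRCm38.p6) they lie at chr12:54203875-54204124 on the minus strand and chr11:120948817-120949066 on the plus strand.
Egln3: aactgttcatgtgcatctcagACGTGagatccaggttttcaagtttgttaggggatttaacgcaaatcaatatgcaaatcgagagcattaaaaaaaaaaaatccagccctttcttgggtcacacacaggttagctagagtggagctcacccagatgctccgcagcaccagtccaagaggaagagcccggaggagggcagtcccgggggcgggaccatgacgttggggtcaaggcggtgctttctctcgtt
Slc16a3: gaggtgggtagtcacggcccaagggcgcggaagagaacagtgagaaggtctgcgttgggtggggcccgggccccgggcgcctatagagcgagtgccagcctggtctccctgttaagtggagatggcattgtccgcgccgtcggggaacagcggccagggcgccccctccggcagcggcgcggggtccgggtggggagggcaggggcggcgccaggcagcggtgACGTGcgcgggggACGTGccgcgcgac
The core was searched on both strands, from 250 bases before to 50 after each start, with letters chosen after the values were seen, and it is contained in the E-box CACGTG. It occurred in windows of 22 of the 31 list genes with a promoter in the table (71.0%) and of 21.8% of all genes there. Among the 14 list genes with a promoter that rose at least 2-fold, 10 had it. A match is a description of letters and not a binding site.

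Egln3, an oxygen-sensing prolyl hydroxylase that is itself a HIF target, was at 11.58, 11.66 and 11.50 in the ES arrays and at 7.90, 8.24 and 7.58 in the 3T3-L1 arrays. It rose by 3.67 ± 0.19 (12.7-fold), and the means of PMEF adipocytes and eWAT were 8.23 and 7.44, so the ES arrays stood above every other group. Aldoc, a glycolytic aldolase, was at 9.56, 9.66 and 9.55 against 5.65, 5.37 and 5.64 and rose by 4.04 ± 0.08 (16.5-fold), again with low means in PMEF adipocytes (6.13) and eWAT (5.40). The lactate exporter Slc16a3 was at 9.0, 9.22 and 9.02 against 5.85, 5.75 and 5.95 and rose by 3.23 ± 0.09. The stress gene Ndrg1 rose by 3.23 ± 0.13, Pfkfb3, which speeds up glycolysis, by 2.66 ± 0.15, the mitophagy gene Bnip3 by 2.11 ± 0.09 and Pfkl by 2.03 ± 0.10. Pdk1, P4ha1 and Car9 rose by 1.46 ± 0.09, 1.59 ± 0.10 and 1.10 ± 0.10. Epas1, the gene of a HIF subunit, went the other way, at 8.43, 8.50 and 8.55 against 9.46, 9.46 and 9.38, and fell by 0.94 ± 0.08. The lactate transporter Slc16a1 fell by 0.94 ± 0.08 and Hk2 by 0.45 ± 0.11.

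Apart from the 4 sex chromosome genes, the interferon response was the list with the highest median. These genes are switched on when cells sense viral nucleic acid or interferon, through STAT and IRF factors that bind repeats of the sequence GAAA. Of 30 measured genes 29 rose, 22 of them at least 2-fold, and none fell, with a median of 1.5. The 250 bases before the start are shown for 3 of the largest rises, with the interferon element AAACNGAAA in capitals, here as TTTCAGTTT on the printed strand. Only this form was searched, so related repeats in the printed bases are not in capitals. They lie on the plus strand of GRCm38.p6 at chr19:34640639-34640888, chr19:34583279-34583528 and chr3:142559794-142560043.
Ifit1: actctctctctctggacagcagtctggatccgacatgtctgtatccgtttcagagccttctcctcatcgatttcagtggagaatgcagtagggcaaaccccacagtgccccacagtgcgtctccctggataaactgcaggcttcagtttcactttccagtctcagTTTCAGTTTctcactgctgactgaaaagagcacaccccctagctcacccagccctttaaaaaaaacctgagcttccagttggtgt
Ifit3: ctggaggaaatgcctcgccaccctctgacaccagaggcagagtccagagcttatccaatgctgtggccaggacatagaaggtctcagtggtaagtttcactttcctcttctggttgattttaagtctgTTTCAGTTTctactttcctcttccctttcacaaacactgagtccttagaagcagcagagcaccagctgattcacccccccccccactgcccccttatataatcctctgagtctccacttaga
Gbp3: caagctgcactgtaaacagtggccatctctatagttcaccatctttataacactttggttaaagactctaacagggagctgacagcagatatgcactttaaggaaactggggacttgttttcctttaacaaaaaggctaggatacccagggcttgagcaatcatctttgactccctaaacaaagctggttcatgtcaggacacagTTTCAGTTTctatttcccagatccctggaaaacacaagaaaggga
The element, also chosen after the values were seen and searched on both strands, was in the windows of 12 of the 25 list genes with a promoter in the table (48.0%) against 2.43% of all genes. Of the 17 list genes there that rose at least 2-fold, 10 had it. In Ifit1, Ifit3 and Gbp3 it began 85, 122 and 45 bases before the start.

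Ifih1, a cytoplasmic sensor of double-stranded RNA, was at 8.77, 8.92 and 8.94 in the ES arrays and at 5.09, 5.35 and 5.38 in the 3T3-L1 arrays, and rose by 3.60 ± 0.15 (12.1-fold). Ifit3, an antiviral binding protein with a near-identical copy in the genome, was at 11.06, 11.20 and 11.02 against 8.40, 7.41 and 6.72, and Ifit1 was at 9.97, 10.22 and 9.90 against 7.19, 6.58 and 5.96. The 3T3-L1 arrays were spread over more than 1 log2 unit for both genes and still did not reach the ES arrays, and the rises were 3.58 ± 0.44 and 3.45 ± 0.41. Usp18, which damps interferon signalling, and the GTPase Gbp3 each rose by 3.46 (SE 0.29 and 0.19). Oasl2, Xaf1, Rsad2 and Mx2 rose by 3.44 ± 0.31, 3.29 ± 0.15, 3.03 ± 0.24 and 2.93 ± 0.18, and the transcription factor genes Irf7 and Stat2 by 2.0 ± 0.29 and 1.29 ± 0.15. The PMEF means of Ifih1, Ifit1 and Usp18 were 8.36, 9.31 and 8.14 and the eWAT means 8.83, 8.38 and 8.06, so the 3T3-L1 means of these genes were the lowest of the 4 groups. Over the whole list the summed level, as log2, was 14.24 to 14.39 in the ES arrays and 12.98 to 13.09 in the 3T3-L1 arrays, beside 14.10 to 14.34 in PMEF adipocytes and 13.84 to 14.32 in eWAT. Macrophage markers gave 3 falls and no rise among 21 genes, and Adgre1, Csf1r, C1qb, Ptprc and Lyz2 were all between 3.87 and 5.42 in these 6 arrays. That share of falls was below the 23.0% of all genes, and 12 of the 21 had both group means below the dim level. The genes Cd68, a lysosomal protein, and Cd14, an endotoxin receptor, were brighter in 3T3-L1 adipocytes. Cd68 was at 8.59, 8.81 and 8.58 against 10.58, 10.37 and 10.30 and fell by 1.75 ± 0.19, and Cd14 was at 5.1, 5.37 and 5.16 against 6.27, 6.56 and 6.66 and fell by 1.29 ± 0.26.

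**Figure D3:**
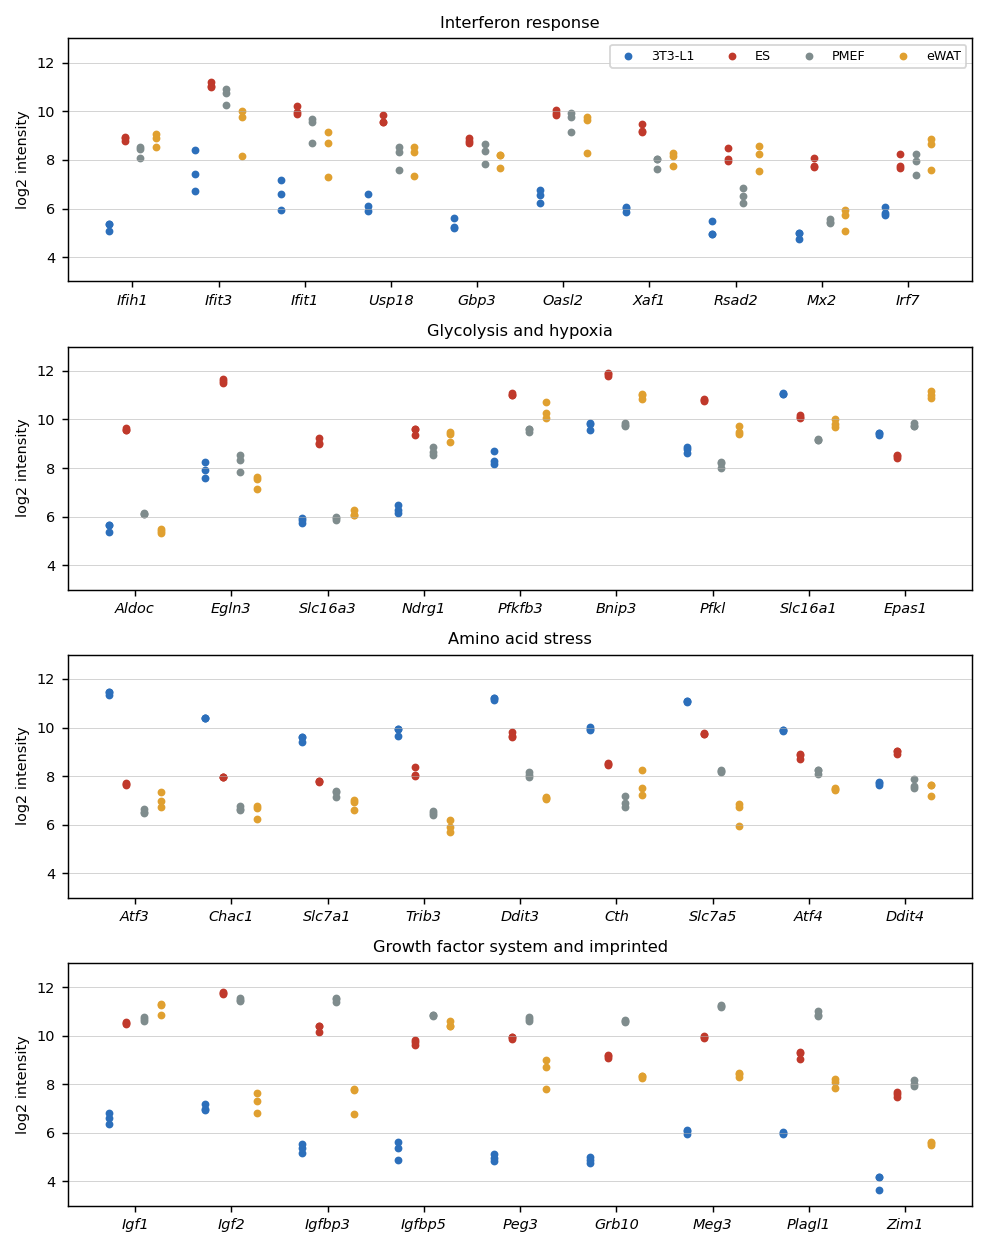
Log2 intensity in each of the 12 arrays for selected genes of the interferon, glycolysis and hypoxia, amino acid stress, and growth factor and imprinted lists, coloured by group. The 3T3-L1 arrays lie lowest for Ifih1, Gbp3 and Xaf1 and highest for Atf3, Chac1 and Slc7a1, while Egln3, Aldoc and Slc16a3 are highest in the ES arrays.

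Signals to immune cells were mixed. Of 32 chemokines and cytokines 10 rose and 4 fell, beside 20.4% and 23.0% of all genes. The eosinophil attractant Ccl11 was at 9.97, 10.17 and 10.09 against 6.29, 5.84 and 6.02 and rose by 4.03 ± 0.12, Cxcl13 rose by 3.93 ± 0.52, and the interferon-induced Cxcl10 by 3.15 ± 0.32. The neutrophil attractant Cxcl1 fell by 1.24 ± 0.11. Among 35 acute phase and complement genes 16 rose and 6 fell. Serping1, the inhibitor of the first complement component, was at 10.86, 10.82 and 10.91 against 4.99, 5.27 and 4.69 and rose by 5.88 ± 0.13 (58.9-fold). C2, C1s1, the metalloreductase Steap4 and the complement regulator Cd55 rose by 2.48 ± 0.12, 2.37 ± 0.11, 2.87 ± 0.11 and 2.77 ± 0.13. Lcn2, an iron-binding protein of inflamed fat, was at 10.26, 10.29 and 10.17 against 12.51, 12.47 and 12.45 and fell by 2.24 ± 0.24. PMEF adipocytes and eWAT had Lcn2 means of 6.32 and 7.02. Orm3 fell by 2.02 ± 0.16.

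The response to amino acid shortage was the list with the lowest median. ATF4 drives it, by inducing amino acid transporters, one-carbon enzymes and further stress factors. Of 32 measured genes 26 fell, 13 of them at least 2-fold, and 2 rose, with a median of -0.87. Atf3, a stress transcription factor, was at 7.70, 7.63 and 7.66 in the ES arrays and at 11.46, 11.34 and 11.45 in the 3T3-L1 arrays, and fell by 3.75 ± 0.12. The glutathione-degrading Chac1, at 7.96, 7.97 and 7.95 against 10.38, 10.39 and 10.40, fell by 2.43 ± 0.11. Ddit3, which encodes the factor CHOP, fell by 1.5 ± 0.08 and Atf4 itself by 1.06 ± 0.08. The transporter genes Slc7a1 and Slc7a5 fell by 1.77 ± 0.10 and 1.35 ± 0.17, the cysteine enzyme Cth by 1.45 ± 0.20, the proline enzyme Aldh18a1 by 1.39 ± 0.09, and the mitochondrial folate enzymes Aldh1l2 and Mthfd2 by 1.35 ± 0.08 and 1.17 ± 0.17. For Atf3, Chac1, Ddit3 and Slc7a5 the means of PMEF adipocytes (6.54, 6.67, 8.06 and 8.2) and eWAT (7.01, 6.56, 7.11 and 6.50) were lower still than in ES adipocytes. Ddit4, an mTOR inhibitor that also answers to low oxygen, rose by 1.30 ± 0.12. Of the sequences searched, the C/EBP-ATF element TGATGCAAT was in the window of 1 of the 25 list genes with a promoter (4.0%, against 0.222% of all genes). Among the cholesterol genes the sterol element TCACCCCAC was in 1 of 19 (5.26%, against 0.614%) and the E-box in 6 of 19 (31.6%, against 8.09%). The C/EBP box TTGCGCAA was in 0 of 23 adipocyte regulators (0.207% of all genes). The TATA box TATAAAA was in 2 of 18 genes of secreted fat products (11.1%, against 6.39%).

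Antioxidant enzymes included both a large rise and large falls. Of 32 genes 17 fell and 7 rose, with a median of -0.25. Nqo1, a standard target of NRF2, was at 5.88, 5.93 and 5.53 against 8.64, 8.61 and 8.82 and fell by 2.91 ± 0.12, and Gsta4 and Srxn1 fell by 1.87 ± 0.13 and 1.81 ± 0.09. The secreted peroxidase Gpx3, high in fat tissue, was at 10.71, 10.77 and 10.74 against 5.05, 4.86 and 4.71 and rose by 5.87 ± 0.17 (58.3-fold), beside an eWAT mean of 11.61.

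Matrix genes were mostly higher in ES adipocytes. Of 38 matrix genes other than collagens 30 rose, 15 of them at least 2-fold, and 1 fell, with a median of 0.72. The proteoglycan Lum was at 8.76, 8.82 and 8.81 against 5.47, 5.41 and 5.67 and rose by 3.28 ± 0.08, Podn by 2.97 ± 0.10, Tnc, a matrix protein of embryos and wounds, by 2.94 ± 0.16, the elastin gene Eln by 2.63 ± 0.11 and Dcn by 1.91 ± 0.08. Of 40 collagen genes 15 rose and 4 fell. Col15a1, a basement membrane collagen of fat, was at 10.01, 10.02 and 10.02 against 6.48, 6.0 and 6.57 and rose by 3.67 ± 0.16, Col14a1 and Col12a1 rose by 3.08 ± 0.12 and 2.39 ± 0.09, and the fibrillar Col3a1 and Col1a1 by 1.36 ± 0.08 and 1.09 ± 0.09. Among 26 proteases and inhibitors 17 rose and 5 fell. The inhibitor Timp3 was at 9.71, 9.66 and 9.88 against 5.05, 5.23 and 5.12 and rose by 4.62 ± 0.09 (24.6-fold), while the collagenase Mmp13, at 4.87, 4.92 and 4.99 against 8.69, 8.79 and 8.62, fell by 3.77 ± 0.10 and Mmp11 by 2.20 ± 0.09.

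Markers of progenitor cells in fat also rose, 19 of 23 of them with 1 fall and a median of 1.07. Cd34 was at 8.41, 8.51 and 8.45 against 4.86, 4.89 and 5.02 and rose by 3.54 ± 0.09, and the surface enzyme and adhesion genes Nt5e and Cd24a rose by 3.40 ± 0.15 and 3.08 ± 0.19. Pdgfra and Pdgfrb, receptors of stromal cells, rose by 0.96 ± 0.13 and 1.66 ± 0.07, and Dlk1, which restrains fat differentiation, by 1.25 ± 0.11. The PMEF means of Cd34, Pdgfra, Pdgfrb and Dlk1, at 10.50, 10.90, 10.90 and 11.32, were above both groups. The 3 measured defining markers of such cells summed to 9.94 to 10.16 in the ES arrays and 8.5 to 8.66 in the 3T3-L1 arrays, and their part in the matrix and growth factor results was not tested.

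Growth factor genes were mostly higher. In the insulin-like growth factor system 13 of 16 genes rose, 10 of them at least 2-fold, and 1 fell, with a median of 1.36. Igf1 was at 10.50, 10.49 and 10.57 against 6.62, 6.83 and 6.37 and rose by 3.91 ± 0.13 (15.1-fold). Igf2, the fetal growth factor, was at 11.74, 11.73 and 11.79 against 6.99, 7.17 and 6.95 and rose by 4.72 ± 0.15 (26.4-fold), with a PMEF mean of 11.48 and an eWAT mean of 7.25. The binding proteins Igfbp3, Igfbp5 and Igfbp6 rose by 4.96 ± 0.21, 4.44 ± 0.14 and 2.43 ± 0.12, the IGFBP protease Htra1 by 3.89 ± 0.08 and the growth hormone receptor Ghr by 2.07 ± 0.06, while the clearance receptor Igf2r fell by 0.54 ± 0.08.

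In Wnt signalling, which blocks fat differentiation, 20 of 37 genes rose and 4 fell. The secreted inhibitors led the rises. Sfrp1 was at 10.45, 10.39 and 10.68 against 4.55, 4.13 and 4.12 and rose by 6.24 ± 0.17 (75.5-fold), Sfrp2 rose by 3.10 ± 0.13 and Sfrp4 by 2.65 ± 0.14, beside the Wnt enhancer Rspo3 at 2.41 ± 0.12. The nuclear partner Lef1 fell by 1.13 ± 0.13. In TGF-beta and BMP signalling 26 of 41 genes rose and 4 fell. The receptor gene Acvr1c, which is high in fat, was at 9.68, 9.51 and 9.75 against 4.29, 4.21 and 4.59 and rose by 5.28 ± 0.10 (38.9-fold), and the ligand Bmp4, which commits progenitors to fat, rose by 4.02 ± 0.17. Tgfb1 fell by 0.94 ± 0.12.

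Retinoid and steroid genes, apart from Rbp4, were divided. Of 24 genes 14 rose and 7 fell. The sterol hydroxylase Cyp7b1 rose by 3.68 ± 0.11, and the retinoid genes Crabp1, Aldh1a1 and Rarb by 1.70 ± 0.13, 1.48 ± 0.09 and 1.07 ± 0.15. Rbp7, a retinol-binding protein of fat and vessels, was at 4.99, 4.42 and 4.83 against 8.24, 8.36 and 8.33 and fell by 3.56 ± 0.18, beside an eWAT mean of 8.31. Hsd11b1, which regenerates active glucocorticoid in fat, was at 7.13, 7.25 and 7.14 against 9.98, 10.02 and 9.90 and fell by 2.79 ± 0.08, beside an eWAT mean of 10.81. Among 26 nuclear receptors 9 rose and 9 fell, with Thrb at 2.46 ± 0.11, Esr1 at 1.88 ± 0.14 and Nr4a1 at -1.07 ± 0.13. Over all genes 20.4% rose and 23.0% fell.

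Imprinted genes, which are expressed from the copy of only 1 parent and often control fetal growth, were higher nearly throughout. Of 24 measured genes 20 rose, 15 of them at least 2-fold, and 1 fell, with a median of 1.26. Peg3 was at 9.85, 9.94 and 9.96 against 4.98, 4.84 and 5.15 and rose by 4.93 ± 0.22 (30.4-fold). The noncoding Meg3, at 9.94, 9.89 and 9.99 against 6.10, 6.09 and 5.95, rose by 3.89 ± 0.07. Zim1, Plagl1, Zdbf2 and Ndn rose by 3.58 ± 0.13, 3.23 ± 0.10, 3.10 ± 0.17 and 2.20 ± 0.10. Peg3, Meg3, Plagl1 and Zim1 were higher in PMEF adipocytes, with means of 10.69, 11.23, 10.89 and 8.04, than in ES adipocytes, and the eWAT means were 8.51, 8.39, 8.05 and 5.57.

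Meg3 lies in the imprinted block between Dlk1 and Dio3 on chromosome 12, whose genes were looked at as a group after the values were seen. Of its 47 measured genes 39 rose and none fell, with a median of 0.60. Of the 40 microRNA genes in it 32 rose, 13 of them at least 2-fold, although 18 had an ES mean and 13 a 3T3-L1 mean above the dim level. A run of 15 neighbouring genes from Mir376c to Mir541 in this block had the highest median (0.97) of 19564 such runs, with 14 rises. The mature microRNAs of the genes with the largest rises are shown first, followed by the pairs that share a seed, with the seed (bases 2 to 8) in capitals. All 40 genes matched the RefSeq table (GRCm38.p6), which gave 76 mature sequences with 74 seeds, 2 of them shared.
miR-382-5p: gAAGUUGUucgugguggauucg
miR-380-3p: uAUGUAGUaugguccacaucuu
miR-377-3p: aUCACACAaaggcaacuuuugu
miR-379-3p: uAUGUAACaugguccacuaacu
miR-411-3p: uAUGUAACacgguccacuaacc
miR-376b-5p: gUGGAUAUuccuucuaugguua
miR-376c-5p: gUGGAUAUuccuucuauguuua
The probe sets cannot tell a mature microRNA from its precursor or from the long host transcript. Mir382 was at 5.99, 6.14 and 5.89 in the ES arrays and at 3.36, 3.45 and 3.51 in the 3T3-L1 arrays and rose by 2.57 ± 0.12, Mir380 rose by 2.38 ± 0.13 and Mir377 by 2.19 ± 0.12. In the pair with the seed AUGUAAC, Mir379 rose by 1.56 ± 0.23 and Mir411 by 1.16 ± 0.28. In the pair with the seed UGGAUAU, Mir376b rose by 1.49 ± 0.14, and Mir376c was at 2.15, 2.10 and 2.39 against 1.83, 2.07 and 2.01, which is dim, and did not pass (adjusted p = 0.329).

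Genes of positional identity went both ways. Hox genes record the place along the body axis from which a cell came. Of 37 Hox genes 12 rose and 8 fell, 6 and 4 of them at least 2-fold. Over all genes 20.4% rose and 23.0% fell, so the Hox falls were near that share. The median of the list was 0.04 (-0.163 with arrays centred on their medians). Both group means lay below the dim level for 9 of the 37. Hoxc6 was at 7.19, 7.30 and 7.31 against 4.73, 4.43 and 4.57 and rose by 2.69 ± 0.10, Hoxc8 rose by 2.26 ± 0.09 and Hoxb5 by 1.86 ± 0.14. Hoxc13, at 4.81, 4.70 and 5.04 against 6.48, 6.45 and 6.55, fell by 1.64 ± 0.11, and Hoxd8 and Hoxd9 by 1.25 ± 0.10 and 1.17 ± 0.11. Hoxc8 and Hoxd8, which bear the same number in their clusters, thus went opposite ways. Of 51 other patterning factors 17 rose and 13 fell, beside 20.4% and 23.0% of all genes. Meox2, Tbx5 and Wt1, a factor of visceral fat progenitors and mesothelium, rose by 2.05 ± 0.14, 1.20 ± 0.12 and 1.12 ± 0.09, while Eya1, Foxc1, Osr2 and Foxd1 fell by 2.46 ± 0.10, 1.94 ± 0.13, 1.77 ± 0.14 and 1.70 ± 0.09.

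Markers of other lineages were checked because ES cultures can hold them. Mesothelial markers rose in 13 of 14 cases with none falling, at a median of 1.24, and the 4 defining ones summed to 9.12 to 9.42 in the ES arrays against 7.36 to 7.47 in the 3T3-L1 arrays. Upk1b was at 7.72, 7.38 and 7.70 against 4.57, 4.39 and 4.22. Upk1b rose by 3.21 ± 0.12, Lrrn4 by 2.14 ± 0.11 and Upk3b by 2.0 ± 0.16, and PMEF adipocytes were higher than both at sums of 10.34 to 10.56. Efemp1, a matrix gene that is also in the mesothelial list, rose by 5.54 ± 0.10 and had an eWAT mean of 10.40. Smooth muscle markers rose in 10 of 16 cases and fell in 3, with Myl9 at 2.62 ± 0.15, Tagln at 2.54 ± 0.14 and Acta2 at 1.33 ± 0.09. The falls were Des (-0.97 ± 0.10), Mylk (-0.95 ± 0.08) and Cald1 (-0.34 ± 0.08). This list summed to 11.84 to 11.98 in the ES arrays and 11.37 to 11.43 in the 3T3-L1 arrays, below PMEF adipocytes at 13.12 to 13.34.

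Neuronal and glial markers rose in 20 of 24 cases, 8 of them at least 2-fold, and fell in 1, with a median of 0.73. For 6 of the 24 both group means lay below the dim level. The list summed, as log2, to 10.62 to 11.08 in the ES arrays and 9.82 to 9.88 in the 3T3-L1 arrays. PMEF adipocytes, at 10.43 to 10.44, and eWAT, at 10.33 to 10.35, also lay above the 3T3-L1 arrays. Stmn2, a neuronal tubulin regulator, was at 7.33, 8.25 and 7.59 against 5.03, 4.94 and 4.43 and rose by 2.92 ± 0.21. Nrcam, the glial filament gene Gfap, Map2 and the migrating neuron marker Dcx rose by 2.02 ± 0.12, 1.82 ± 0.12, 1.70 ± 0.15 and 1.55 ± 0.16. ES array 2 was the highest of the ES arrays for Stmn2, Gfap (7.19 against 6.68 and 6.87), Map2 (7.29 against 6.50 and 6.76) and Elavl4 (5.65 against 4.86 in each of the others). Without that array 16 of the 24 rose and the median was 0.57. Fabp7 was at 10.59, 11.22 and 10.86 in the same arrays, and the part of such cells in its rise was not tested.

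Pluripotency markers gave more rises than falls, mostly of small size. Of 26 pluripotency markers 10 rose and 1 fell, with a median of 0.15 (-0.055 with median centring), and 10 had both group means below the dim level. Klf4, Tbx3 and Sall4, which other tissues also use, had ES means of 7.09, 6.92 and 6.15 and 3T3-L1 means of 7.86, 6.23 and 5.66. Pou5f1 was at 4.31, 4.18 and 4.15 against 3.67, 4.0 and 4.07 and Nanog at 5.42, 5.42 and 5.36 against 5.18, 5.05 and 4.95, differences of 0.30 ± 0.10 and 0.34 ± 0.08 at or near the dim level. Neither passed with median centring, and Pou5f1 did not pass without ES array 1, without 3T3-L1 array 1 or in fits of only the 6 arrays (adjusted p = 0.0545, and 0.0936 with the replicate block). Zfp42 overlapped between groups. Sox2, a gene of stem cells and of the nervous system, was at 5.55, 5.83 and 5.51 against 4.12, 4.01 and 3.85 and rose by 1.64 ± 0.12. Of the 6 defining markers 5 rose and 0 fell, beside 20.4% and 23.0% of all genes. The ES mean lay above the dim level for 4 of the 6 and the 3T3-L1 mean for 0. Dppa5a, another of them, rose by 0.73 ± 0.20, with means of 5.50 and 4.77. The 6 defining markers summed to 7.6 to 7.86 against 6.98 to 7.13. Endothelial markers gave 9 rises and 1 fall in 22, the fall being Pecam1 (-0.78 ± 0.11). Cdh5 was at 6.47, 6.67 and 6.63 against 4.86, 5.31 and 5.12 but had an eWAT mean of 11.04. Emcn, Kdr and Tie1 overlapped between groups.

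**Figure D4:**
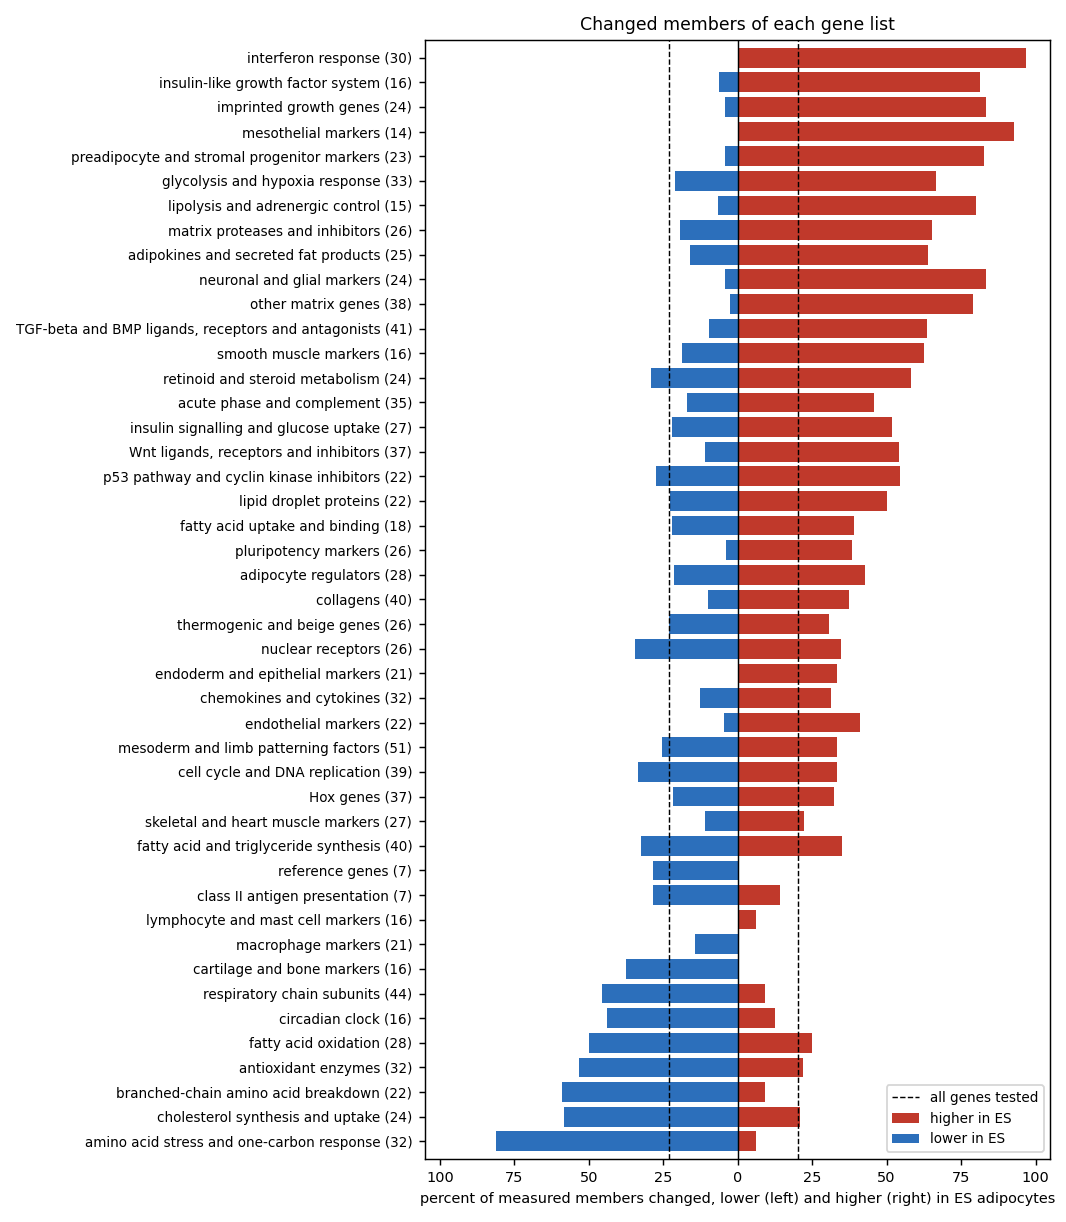
Percent of the measured members of each of 45 gene lists that rose (right, red) or fell (left, blue) in ES adipocytes, with the number measured in brackets and lists ordered by median difference. Dashed lines give the shares over all genes tested, 20.4% higher and 23.0% lower, and the interferon list (29 of 30 higher) and the amino acid stress list (26 of 32 lower) stand at the ends.

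Several of the largest rises were of genes that were also high in eWAT. Car3, a carbonic anhydrase abundant in fat, was at 12.91, 12.88 and 12.87 against 6.02, 5.76 and 5.90 and rose by 6.99 ± 0.07 (128-fold), beside means of 12.60 in PMEF adipocytes and 13.12 in eWAT. Bche (butyrylcholinesterase), Plbd1, Itih5 and Gnai1 rose by 6.0 ± 0.10, 5.96 ± 0.12, 5.78 ± 0.09 and 5.78 ± 0.10 and had eWAT means of 10.08, 10.36, 9.97 and 10.60. Ctsc, a lysosomal protease, the granule proteoglycan Srgn and Tshr, the thyrotropin receptor, rose by 5.46 ± 0.13, 5.38 ± 0.11 and 4.83 ± 0.08. The glypican gene Gpc3, at 10.31, 10.30 and 10.39 against 5.02, 4.55 and 4.84, rose by 5.53 ± 0.13. Its eWAT mean of 7.89 lay below the ES arrays and the PMEF mean (10.06) but above the 3T3-L1 arrays.

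Among the largest falls, several genes were high in the 3T3-L1 arrays alone. Slc35e3, a gene of the solute carrier family, was at 7.12, 6.98 and 7.05 against 11.94, 11.99 and 11.84 and fell by 4.87 ± 0.09 (29.3-fold), and the PMEF and eWAT means were 7.21 and 6.55. Its neighbour Mdm2, the ubiquitin ligase that degrades p53, was at 9.41, 9.39 and 9.41 against 12.49, 12.51 and 12.40 and fell by 3.07 ± 0.08 (8.37-fold), beside means of 9.52 and 8.01. Among Mdm2 and the 4 measured genes on each side of it on chromosome 10, looked at after the values were seen, 6 of 9 fell and none rose. Cpm fell by 2.87 ± 0.16, Rap1b by 0.70 ± 0.09 and Nup107 by 0.32 ± 0.08, whereas Mdm1 and Cpsf6 did not pass the test (0.02 and 0.05). With reference gene centring Nup107 no longer passed and Cpsf6 was higher, at 0.19. The list of p53 pathway genes and cyclin kinase inhibitors, which holds Mdm2 itself, went both ways. Of its 22 genes 12 rose and 6 fell, beside 20.4% and 23.0% of all genes. Phlda3 was at 2.04 ± 0.11, Ccng1 at 0.97 ± 0.06 and Gadd45a at -1.57 ± 0.14. Cwc22, a splicing factor with 8 probe sets, was at 7.81, 7.84 and 7.87 against 11.29, 11.31 and 11.35 and fell by 3.48 ± 0.08, whereas the 1 probe set that gave another value fell by 2.37. The peptide gene Ghrh fell by 3.18 ± 0.13. Cbr2, a carbonyl reductase, fell by 4.85 ± 0.19 but had an eWAT mean of 10.62, near the 3T3-L1 arrays at 11.16, 11.23 and 10.98.

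Hprt and a long noncoding RNA were low in the ES arrays alone. Hprt, the purine salvage enzyme on the X chromosome, was at 4.17, 4.57 and 4.60 in the ES arrays, below the dim level, and at 10.46, 10.33 and 10.15 in the 3T3-L1 arrays. It fell by 5.86 ± 0.14 (58.3-fold), and the means were 10.07 in PMEF adipocytes and 9.59 in eWAT. AI506816, a noncoding RNA gene on chromosome 5 named after its values were seen, was at 3.71, 2.92 and 2.68 against 10.08, 10.10 and 10.42 and fell by 7.10 ± 0.20, beside means of 9.44 and 9.01. The Y-linked genes Eif2s3y and Uty were at 9.27, 9.42 and 9.27 and at 7.93, 7.99 and 7.90 in the ES arrays, and at 3.30 to 3.67 and 3.40 to 3.68 in the 3T3-L1 arrays. They rose by 5.84 ± 0.11 and 4.36 ± 0.09. Another Y-linked gene, Kdm5d, was dim in both groups, at 4.75, 5.04 and 4.62 against 4.25, 4.55 and 4.46 (0.39 ± 0.14, adjusted p = 0.0424), beside means of 6.56 in PMEF adipocytes and 7.46 in eWAT. Its call was lost under 9 alternatives, such as leaving out ES array 1 or 2 or 3T3-L1 array 1 or 3 (adjusted p = 0.0512 to 0.278 over the 9). Xist, which silences an X chromosome in female cells, was dim in both groups, at 3.82 to 4.2 and 3.98 to 4.15. The sex behind each line is not stated in the labels used here, and sex-linked differences cannot be told apart from the other differences between the cells.

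Differences were also uneven along the genome. Over 14967 genes with a group mean above the dim level, 25.4% rose and 28.6% fell. On chromosome 11 (1301 genes) 44.7% rose, with a median of 0.17. Each ES array lay 0.20 to 0.23 above the PMEF mean there and each 3T3-L1 array 0.01 to 0.02. On chromosome 15 (601 genes) 15.6% rose and 50.4% fell with a median of -0.24, on chromosome 6 (756 genes) 17.3% and 47.2% with -0.21, and on chromosome 19 (527 genes) 15.9% and 43.5% with -0.17. Chromosome 16 (459 genes) had 16.8% and 44.7% with -0.16. For chromosomes 15 and 6 the 3T3-L1 arrays lay 0.17 to 0.21 above the PMEF mean and the ES arrays within 0.02 of it. On chromosome 8 both groups lay above the PMEF mean, the 3T3-L1 arrays by 0.21 to 0.24 and the ES arrays by 0.13 to 0.16. The comparisons with PMEF adipocytes share those arrays and are given side by side only. Centring the arrays moves the medians of all chromosomes by the same amount. The run of 15 neighbouring genes with the lowest median, -0.95, lay on chromosome 6 from Casc1 to Smco2, where 12 fell and none rose. In it the calcium channel gene Itpr2 fell by 1.59 ± 0.10, Med21 by 1.51 ± 0.10, and Arntl2 and Bhlhe41, 2 genes of the circadian clock, by 1.45 ± 0.07 and 1.43 ± 0.22. DNA copy number was not measured.

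**Figure D5:**
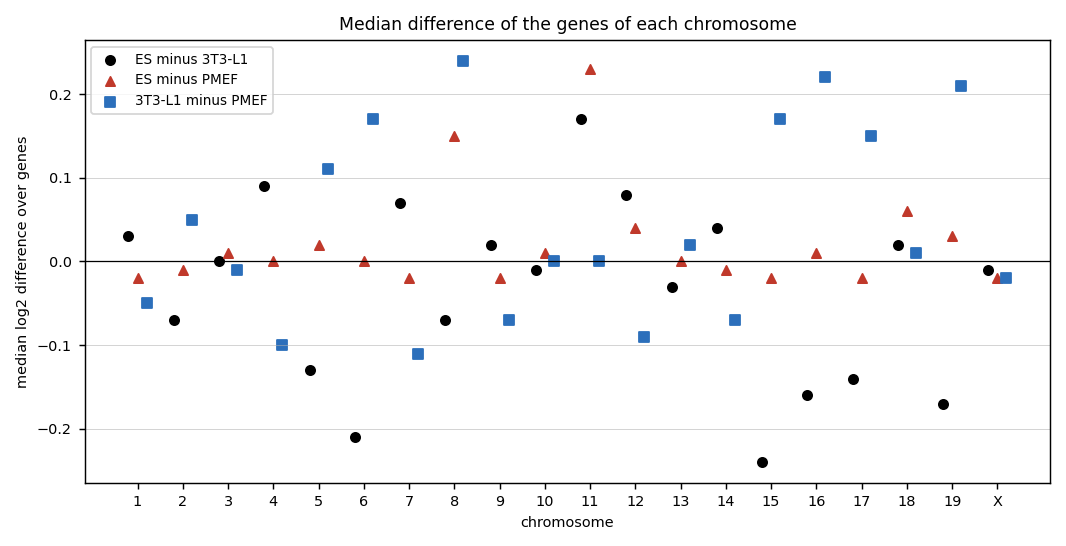
Median log2 difference over the genes of each chromosome with a group mean above the dim level, for ES minus 3T3-L1 (circles), ES minus PMEF (triangles) and 3T3-L1 minus PMEF (squares). Chromosome 11 is high where ES adipocytes are the first group, and chromosomes 6, 15, 16, 17 and 19 are high in 3T3-L1 minus PMEF and near 0 in ES minus PMEF. Chromosome 8 is high in both, at 0.24 in 3T3-L1 minus PMEF and 0.15 in ES minus PMEF.

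Proliferation genes gave no common shift. Of 39 cell cycle and replication genes 13 rose and 13 fell. Mcm2, a part of the replication helicase, was at 7.09, 7.08 and 7.11 against 9.21, 8.99 and 9.19 and fell by 2.04 ± 0.09, whereas the proliferation marker Mki67 rose by 0.72 ± 0.12 and the cyclin Ccnd3 by 1.09 ± 0.07. Of 16 clock genes 7 fell and 2 rose, and Bhlhe41 was the 1 that fell at least 2-fold. Arntl2 was not in that list. Cartilage and bone markers fell in 6 of 16 cases without a rise, and muscle markers rose in 6 and fell in 3 of 27. Endoderm markers rose in 7 of 21, and of 16 lymphocyte and mast cell markers only Kit (2.03 ± 0.15) passed the test. Over all genes 20.4% rose and 23.0% fell, and the muscle rises were near that share. Both group means lay below the dim level for 10 cartilage and bone, 8 muscle, 6 endoderm and 12 lymphocyte and mast cell markers.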

How the data were processed

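Total RNA (300 ng per sample, per the labels' protocols) was measured on Affymetrix whole-transcript mouse arrays, 3 for each of 4 groups. The values are log2 intensities as deposited by the authors; the normalization behind them is not named in any header or label. Precision is set by having 3 arrays per group. Of 35556 probe sets, 21789 had 1 gene symbol in the platform annotation, 1621 had several and 12146 none, and 21698 matched RefSeq by gene number. The brightest probe set over all 12 arrays stood for each of 19938 genes (999 had several).

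limma 3.58.1 (R 4.3.3) fitted a 4-group model over all 12 arrays. The contrast was ES minus 3T3-L1, with Benjamini-Hochberg adjustment over all 19938 genes and a threshold of 0.05. The script was first tested on simulated data. Fold changes of 2 or more are a log2 difference of at least 1.

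The 46 gene lists (1194 of 1280 entries measured) and the comparison were chosen with earlier results of these data known. Named genes were the 30 largest non-overlapping changes each way, up to 6 called members of each list each way, all called members changed at least 2-fold in lists of up to 45 entries, marker genes, and members of the extreme runs of 15 genes. AI506816, the neighbours of Mdm2, the Dlk1 to Dio3 block, the motifs and the dim level were chosen after values were seen. Promoters and microRNAs came from RefSeq (GRCm38.p6). Alternatives changed the scaling, probe set choice, variance model, samples and replicate block.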

Additional observations from a re-analysis of the deposited data

How the results depend on the processing

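Direction and significance mostly held for the named genes. Many of these were named for large called changes, so their agreement does not extend to all genes. Over 22 alternatives for 268 named genes, 5846 of 5879 values kept direction and side of the threshold, 18 lost the call, 14 gained it and 1 turned: Scd1, at -0.18 with arrays centred on their medians. Scaling moved the split of higher against lower calls most. With arrays centred on reference genes 6138 genes were higher. With arrays centred on their medians 2611 were higher, 9410 lower and 998 at least 2-fold lower. Testing all 35556 probe sets gave 2701 changed at least 2-fold, of which 1565 were higher and 1136 lower. The higher share of these was 57.9%, beside 65.5% in the main fit, and the reason was not tested. Testing against a 2-fold null (limma treat) left 955, with 683 higher and 272 lower, since that test asks for more. The causes of the shifts with scaling were not tested. Leaving out 1 array at a time gave 7758 to 9005 changed genes and 1610 to 1657 changed at least 2-fold. The list medians that turned sign were all within 0.2 of 0 as deposited. The replicate block gave 8435 changed genes (8794 with only the 6 arrays). Same-numbered ES and 3T3-L1 arrays did not deviate together (correlations -0.041, 0.045 and -0.026), so the numbers were not taken as pairs. Levels below the dim level of 5.14 limit what can be said of the lower group.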
